A study of Mus musculus with 71 samples.

Results

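Hippocampal mRNA of home cage mice killed at night was compared between time-restricted feeding (TRF) and free feeding (ad lib) on a diet rich in fat and sucrose (HFS). The comparison holds 5 HFS TRF and 6 HFS ad lib mice, 11 of the 71 mice of the series, defined by diet, feeding schedule, task and time. It was repeated without HFS ad lib replicate 2, a mouse singled out for its high microglial transcripts. All were wild-type males of the C57BL/6J strain that ate HFS from weaning. HFS ad lib mice had food at all hours throughout, and HFS TRF mice had the same diet freely at first and then, for the last weeks, only in a window around the dark phase. Neither group was trained in object recognition memory (ORM), and both were taken from the home cage (HC) at zeitgeber time (zt) 15, a few hours after lights off. Values of 6 HC mice fed normal chow (NC) ad lib at zt15, of the same experiment, are given as a reference.

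Night-active mice eat mostly in the dark, and free access to an obesogenic diet spreads part of their intake into the light phase. TRF gives the feeding rhythm back to the dark phase without changing what is eaten. Meal time is a timing cue for the molecular clocks of many tissues, in which transcriptional activators and their own repressors oscillate, and it also moves metabolic gene programmes. The mRNA was purified by pS6-TRAP, an immunoprecipitation of ribosomes through the phosphorylated form of ribosomal protein S6. It therefore favours transcripts held by ribosomes in cells in which S6 is phosphorylated, mostly active cells, and a level is a share of that purified mRNA. In such bulk samples, fewer cells of a type and less mRNA per cell cannot be told apart.

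Total counts ranged from 46952914 to 58754989 in HFS ad lib and from 50381401 to 56146755 in HFS TRF mice, so depth was alike in the groups. Levels are given as CPM, counts scaled to a common library size. Of the values between 1 and 40 counts in these mice, 80.9% were even numbers. Markers of all 3 hippocampal subfields were present in each mouse, with summed levels of 534 to 829 CPM for 7 markers of CA1, 936 to 1164 CPM for 9 of CA2 and CA3, and 497 to 637 CPM for 10 of the dentate gyrus. No 2 libraries of a group were alike within sampling noise.

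The main comparison, by edgeR's quasi-likelihood test, held 30141 genes with at least 10 counts in total, and 0 of them (0%) had a Benjamini-Hochberg adjusted p under 0.05. The smallest adjusted p was 0.107. At an unadjusted p under 0.05 there were 4694 genes or 15.6% of those tested, 2487 (8.25%) with a higher and 2207 (7.32%) with a lower mean in HFS TRF mice. In 122 genes (0.405%) every HFS TRF mouse was above every HFS ad lib mouse, and in 104 (0.345%) every one was below. The Wald test of DESeq2, run on the same counts, called 56 of 22543 genes that it gave an adjusted p (0.248%), 15 higher and 41 lower. Of the 56, 53 were at unadjusted p by edgeR's test. Ighg1, Gng14 and Iglc1 were not. Their DESeq2 log2 fold changes were 18.3, -16.9 and -17.3, with at most 0.153 CPM in any of these mice. The p-values rest on a spread between mice within groups that was estimated over all groups of the series, not in these mice alone. Some counts changed in a fit of the compared groups alone, and these are given in the last section. All gene-wise differences below are therefore given as values with their errors, and a count "at unadjusted p" is read against the shares of all genes above.

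The mice did not fall apart by feeding schedule. In a principal component analysis of 13192 genes with a mean of at least 2 CPM, the first component held 49.4% of the variance and set HFS TRF replicates 1, 3 and 4 and HFS ad lib replicate 3 at 24.2 to 47.1, apart from the other 7 mice at -33.8 to -6.61. HFS TRF replicates 2 and 5 correlated more closely, on average, with the HFS ad lib mice (r = 0.983 for each) than with their own group (r = 0.972 and 0.971). Likewise, HFS ad lib replicate 3 had a mean r of 0.98 with the HFS TRF mice and 0.971 with its own group. These are correlations across genes, which are not independent replicates.

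That grouping ran with transcripts of the choroid plexus, the epithelium that makes cerebrospinal fluid in the ventricles and borders the hippocampus. The summed level of 14 choroid plexus markers was 8162, 497, 19319, 9398 and 442 CPM in HFS TRF replicates 1 to 5. In HFS ad lib mice it ran from 190 to 9245 CPM with a median of 761 CPM, and the highest was replicate 3. So 3 of 5 HFS TRF mice and 1 of 6 HFS ad lib mice were high, and the groups overlapped over most of their range. NC mice covered a similar span, from 541 to 16728 CPM.

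Each of the 14 markers had a higher mean in HFS TRF mice, with a median log2 fold change of 1.76 and none at unadjusted p under 0.05. Ttr, the thyroid hormone carrier secreted by this epithelium and chosen after its values were seen, stood at 6902, 338, 17308, 8102 and 288 CPM in HFS TRF replicates 1 to 5. In HFS ad lib mice it ran from 98.7 to 8186 CPM with a median of 600 CPM (log2 fold change 1.89, SE 1.25). Kl, which encodes klotho, and Otx2, a transcription factor of this epithelium, differed by 1.52 (SE 0.78) and 1.43 (SE 0.75) on the log2 scale. When 1 mouse was left out the count at unadjusted p ran from 0 to 14 of 14 markers and the median from 1.12 to 3.29. The highest count and median came without HFS ad lib replicate 3, the high mouse of its group. Without HFS ad lib replicate 2 the count was 0 and the median 1.52.

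Tissues that border the ventricles and the brain surface went the same way. Of 10 ependymal markers, 5 were at unadjusted p with a higher mean and none with a lower one (median log2 fold change 0.95), against 8.25% higher among all genes. The count was 1 without HFS ad lib replicate 2 (median 0.87) or HFS TRF replicate 3, 2 without HFS ad lib replicate 6 or HFS TRF replicate 4, and 3 without HFS ad lib replicate 1 or 4 or HFS TRF replicate 1. Foxj1, the regulator of motile cilia, stood at 48.1, 11.9, 54.9, 44.5 and 9.66 CPM in HFS TRF mice and from 6.45 to 26.5 CPM (median 11.4) in HFS ad lib mice. Dynlrb2, a dynein light chain of cilia, differed by 1.59 (SE 0.67). The same HFS TRF replicates 1, 3 and 4 were high in both genes. Of 10 markers of meningeal fibroblasts, 3 were at unadjusted p, all higher (median 0.85), with 1 without HFS TRF replicate 3 and 6 without HFS ad lib replicate 3. Among the 3, the collagen gene Col1a2 differed by 1.55 (SE 0.49) and Lum, which encodes lumican, by 1.16 (SE 0.44).

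Markers of pericytes and vascular smooth muscle differed more evenly between mice. Their summed level was 52.7, 47.0, 47.4, 36.9 and 38.0 CPM in HFS TRF replicates 1 to 5 and 28.7 to 35.6 CPM with a median of 31.7 CPM in HFS ad lib mice. In this sum every HFS TRF mouse was above every HFS ad lib mouse, and NC mice ran from 26.7 to 47.6 CPM. The separation rests on Vtn, the only 1 of the 10 markers without overlap, against 0.405% of all genes. Without Vtn the sums of the groups overlap. Of the 10 markers, 4 were at unadjusted p, all higher (median 0.99), and the count was 3 with the choroid plexus and microglia scores of each mouse in the model. Vtn, which encodes vitronectin, a plasma and matrix protein made by brain pericytes, stood at 11.4, 18.2, 14.8, 7.39 and 5.17 CPM in HFS TRF mice and from 2.48 to 4.78 CPM (median 4.19) in HFS ad lib mice. Its log2 fold change was 1.51 (SE 0.42, adjusted p = 0.162 by edgeR's quasi-likelihood test), with no overlap between the groups. Myh11, the smooth muscle myosin heavy chain, differed by 1.34 (SE 0.46). Of 12 endothelial markers, by contrast, 0 were higher and 2 lower at unadjusted p (median -0.16), and 0 lower without HFS ad lib replicate 2 (median 0.08), HFS ad lib replicate 6 or HFS TRF replicate 1.

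**Figure D1:**
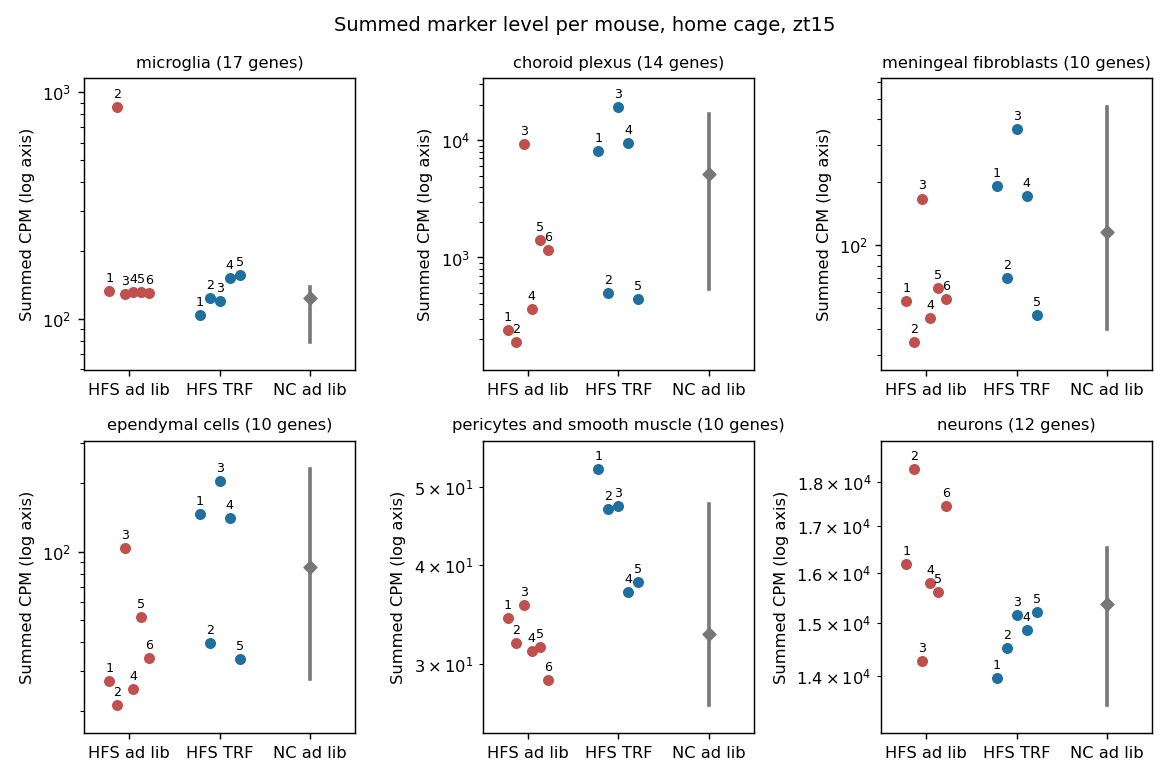
Summed CPM of 6 marker lists (log axis) for each HFS ad lib mouse (red) and HFS TRF mouse (blue) at HC zt15, numbered by replicate. The grey line is the range and the diamond the median of 6 NC mice. HFS ad lib replicate 2 stands at 864 CPM of microglia markers while the other 10 mice lie between 104 and 156 CPM, and 4 mice are high in choroid plexus, meningeal and ependymal markers.

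HFS ad lib replicate 2 stood apart from every other mouse in transcripts of microglia, the resident macrophages of the brain. Its 17 microglia markers summed to 864 CPM, against 128 to 132 CPM in the other 5 HFS ad lib mice. HFS TRF replicates 1 to 5 had 104, 124, 120, 151 and 156 CPM, and no other mouse of the series was above 220 CPM. With this mouse in the comparison, 15 of 17 microglia markers were at unadjusted p with a lower mean in HFS TRF mice, with a median log2 fold change of -0.98. Without it, 0 of 17 were, and the median was 0.01.

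The most abundant microglia markers showed this one by one. Csf1r, the receptor on which microglia depend for survival, was at 133 CPM in that mouse, 17.4 to 22.3 CPM in the other HFS ad lib mice and 15.7 to 23.7 CPM in HFS TRF mice. Its log2 fold change was -0.94 (SE 0.27) with and 0.03 without the mouse. For the protease gene Ctss it was -1.09 and -0.05. The complement genes C1qa, C1qb and C1qc, whose products tag synapses and debris, went from -1.01, -1.12 and -0.98 to 0.02, 0.00 and 0.04. Laptm5, a lysosomal protein of leukocytes, and Cx3cr1, the fractalkine receptor, went from -1.17 and -1.19 to -0.21 and -0.11.

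Several of the lower genes of smallest p belong with this mouse. Bin2, an adaptor of membrane curvature in blood cells and microglia (GRCm39 chr15:100538958-100567441), was at 44.9 CPM in HFS ad lib replicate 2. The other HFS ad lib mice held 1.52 to 3.14 CPM and HFS TRF replicates 1 to 5 held 0.650, 1.96, 1.29, 3.23 and 2.21 CPM. Its log2 fold change was -2.33 (SE 0.49) with and -0.31 without the mouse. Fcrl2, an Fc receptor-like gene of microglia, was at 63.9 CPM there and at 2.79 to 7.28 CPM in the other 10 mice, and went from -1.67 to -0.14. Lcn2, the acute phase protein lipocalin 2, had 932 counts in that mouse and at most 4 in any of the others, so its fitted difference rests on 1 library. Of the 41 genes that the DESeq2 Wald test called lower, 16 were over 2-fold higher in this mouse than in the next highest of the 11. Of the 15 called higher 0 were, but a gene that high in an HFS ad lib mouse can hardly be called higher in HFS TRF mice.

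Without this mouse, 1 gene of 30141 passed an adjusted p under 0.05 (0.00332% of those tested) and 4311 (14.3%) were at unadjusted p. The gene is Gm7334, a processed pseudogene singled out after its values were seen, with a log2 fold change of -3.72 (adjusted p = 0.0281 by edgeR's quasi-likelihood test) and a mean of 0.131 CPM in the other HFS ad lib mice. Reads of a pseudogene can be shared with its parent gene, so the value is uncertain. Genes with a higher mean at unadjusted p made up 7.69% and those with a lower mean 6.62%, and at a mean of at least 10 CPM the shares were 7.35% and 9.54%. The groups did not overlap in 0.68% of genes with a higher and 0.508% with a lower mean. Of the 2487 higher genes at unadjusted p with all mice, 1872 were also there without it, and of the 2207 lower genes 1642 were.

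The other lower genes of smallest p had varied roles. Ctr9 (chr7:110627956-110655586), a subunit of the PAF1 complex that travels with RNA polymerase II, had the smallest p of all genes. It stood at 43.2, 39.9, 40.3, 40.7 and 38.6 CPM in HFS TRF mice and from 43.2 to 58.5 CPM with a median of 52.9 CPM in HFS ad lib mice. The groups met only between the highest HFS TRF and the lowest HFS ad lib mouse. The log2 fold change was -0.36 (SE 0.07, adjusted p = 0.107 by edgeR's quasi-likelihood test), and it stayed at -0.36 (adjusted p = 0.0688) without HFS ad lib replicate 2.

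Plcb2 (chr2:118537979-118559111), a phospholipase C that acts downstream of G protein-coupled receptors, was at 1.41, 1.59, 1.09, 1.78 and 1.82 CPM in HFS TRF mice. HFS ad lib mice ran from 2.30 to 3.58 CPM with a median of 2.99 CPM, so the groups did not overlap (log2 fold change -0.94, SE 0.20, adjusted p = 0.107 by edgeR's quasi-likelihood test). NC mice held 1.98 ± 0.27 CPM (SD, n = 6), closer to HFS TRF. The level was under 4 CPM in every mouse.

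Of the neuronal genes, Nap1l2 (chrX:102227782-102230246), a nucleosome assembly protein of neurons, stood at 67.0, 68.7, 66.6, 68.8 and 71.7 CPM in HFS TRF mice against 73.9 to 98.1 CPM (median 81.2) in HFS ad lib mice. The spread among HFS TRF mice was small, the groups did not overlap, and the log2 fold change was -0.29 (SE 0.07), or -0.33 (adjusted p = 0.0688) without HFS ad lib replicate 2. Dzank1, which encodes a zinc finger and ankyrin repeat protein, was at 128, 130, 123, 140 and 145 CPM in HFS TRF mice and at 158 to 186 CPM (median 170) in HFS ad lib mice. There was again no overlap (-0.35, SE 0.08). Ttbk2, a tubulin kinase needed to start cilium assembly, differed by -0.44 (SE 0.11) with overlap between the groups, and Kif26a, a kinesin-like protein, by -0.88 (SE 0.22).

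Both trafficking genes in the set were lower in every HFS TRF mouse than in every HFS ad lib mouse. Gga3, an adaptor that sorts cargo at the Golgi and endosomes, was at 56.5, 58.6, 54.3, 59.8 and 64.0 CPM in HFS TRF mice and at 66.9 to 84.6 CPM (median 74.0) in HFS ad lib mice (-0.34, SE 0.08). Washc4, a subunit of the endosomal WASH complex, was at 12.3, 13.6, 10.8, 11.9 and 11.8 CPM against 13.6 to 19.9 CPM (median 16.1), a difference of -0.46 (SE 0.11). The margin for Washc4 was narrow, since HFS TRF replicate 2 and the lowest HFS ad lib mouse were nearly level. Rasgrp3, an exchange factor for Ras, differed by -0.84 (SE 0.20) and by -0.61 without HFS ad lib replicate 2. Card9, an adaptor of innate immune signalling in myeloid cells, differed by -1.75 (SE 0.39) and by -1.07 without that mouse, at means of 1.33 and 0.394 CPM.

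Among the higher genes, 3 encode mitochondrial proteins. Tmem223 (chr19:8748348-8751326), a membrane protein of mitochondria, stood at 28.7, 29.4, 30.1, 30.9 and 30.5 CPM in HFS TRF mice and from 20.3 to 29.5 CPM with a median of 23.1 CPM in HFS ad lib mice (log2 fold change 0.34, SE 0.08, adjusted p = 0.141 by edgeR's quasi-likelihood test). Only HFS ad lib replicate 6 reached the HFS TRF values. Slirp, an RNA-binding protein that stabilises mitochondrial mRNA, was at 36.9, 35.6, 31.6, 42.0 and 39.4 CPM against 26.7 to 30.3 CPM (median 28.9), without overlap (0.37, SE 0.09). Pam16, part of the motor that pulls proteins into the mitochondrial matrix, was at 25.4, 28.1, 25.8, 35.3 and 29.4 CPM against 21.3 to 24.1 CPM (median 23.6), also without overlap (0.32, SE 0.08).

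Other higher genes of smallest p stood at lower levels. Zbed3 (chr13:95460111-95474349), a partner of axin in Wnt signalling, was at 12.1, 14.3, 13.3, 15.1 and 14.0 CPM in HFS TRF mice and at 9.85 to 12.0 CPM (median 10.5) in HFS ad lib mice (0.36, SE 0.08, no overlap). Smim11, a small membrane protein, was at 13.5, 14.3, 15.5, 15.9 and 13.4 CPM against 9.14 to 12.2 CPM (median 9.97), again without overlap (0.49, SE 0.12). Nid1, the basement membrane protein nidogen 1, was at 2.26, 2.57, 2.02, 1.05 and 1.5 CPM against 0.188 to 0.920 CPM (median 0.469), the widest ratio of these (1.78, SE 0.45).

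St8sia2, which adds polysialic acid to the adhesion molecule NCAM in developing neurons, was at 1.03, 2.23, 1.37, 1.24 and 2.05 CPM in HFS TRF mice and at 0.299 to 1.17 CPM (median 0.566) in HFS ad lib mice. The highest of its group was HFS ad lib replicate 2, and without it the log2 fold change went from 1.34 (SE 0.33) to 1.61 (adjusted p = 0.0688 by edgeR's quasi-likelihood test). Efcab10, an EF-hand protein, differed by 1.12 (SE 0.27) and Uxt, a prefoldin-like chaperone, by 0.79 (SE 0.19). Tns2, a focal adhesion adaptor, was at 9.56, 6.58, 11.7, 7.01 and 4.33 CPM in HFS TRF mice against 2.94 to 6.12 CPM (median 3.63), a difference of 1.00 (SE 0.22). Rab34, a small GTPase of ciliary vesicles, differed by 0.65 (SE 0.17). In Tns2, Rab34 and Uxt the highest HFS ad lib mouse was replicate 3 and the highest HFS TRF mice were replicates 1, 3 and 4, the mice high in choroid plexus transcripts. A fit with the choroid plexus and microglia scores was run on all genes, but its values for these genes are not given here. The part of those transcripts in these differences is therefore not stated.

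Genes near 0 are given by their counts. Spmip3, a microtubule-associated protein of sperm tails, had 0 counts in all 6 HFS ad lib mice and 12, 0, 10, 22 and 4 counts in HFS TRF replicates 1 to 5. Igfals, which carries insulin-like growth factor in blood, had 8 counts in HFS ad lib replicate 2 and 0 in the other 5, against 26, 8, 24, 26 and 7 counts in HFS TRF mice. In both genes HFS TRF replicates 1, 3 and 4, high in choroid plexus transcripts, had the most counts. Without HFS ad lib replicate 2 Igfals was among the 5 higher genes of smallest p, as were Sra1, a coactivator RNA of steroid receptors that also encodes a protein, and Psmc3ip, a protein of meiotic recombination. Sra1 stood at 60.5, 64.8, 55.5, 72.6 and 66.6 CPM in HFS TRF mice and at 43.7 to 54.4 CPM in the 5 HFS ad lib mice left, with a log2 fold change of 0.37 (adjusted p = 0.0688 by edgeR's quasi-likelihood test) against 0.30 with all mice. Psmc3ip differed by 0.81 without and 0.68 with that mouse.

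**Figure D2:**
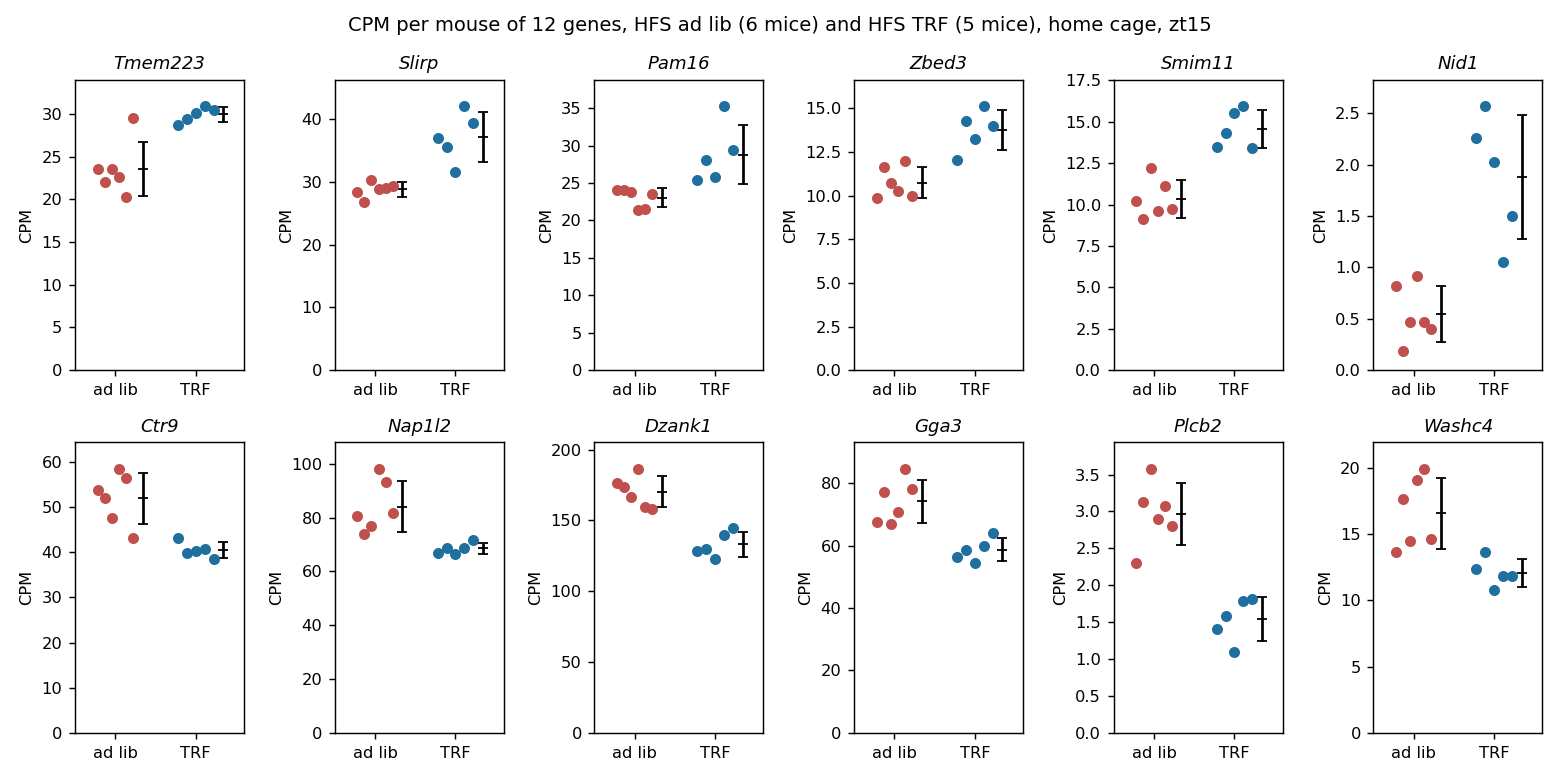
CPM of 12 genes picked by hand from the 24 of smallest p, with 1 point per mouse (axes start at 0). Genes that overlap more, such as Tns2, Rab34 and Ttbk2, or are far higher in 1 mouse, such as Bin2, Fcrl2 and Lcn2, are not shown. HFS ad lib mice are red and HFS TRF mice blue, and the bar beside each group is the mean with 1 SD. The upper genes lie higher and the lower genes lie lower in HFS TRF mice, and Tmem223 and Ctr9 are the genes shown in which the groups meet.

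Transcripts of the translation machinery had higher means in HFS TRF mice as a group. The 55 genes of cytosolic ribosomal proteins had a median log2 fold change of 0.15, 53 of 55 were above 0, and 26 of 55 (47.3%) were at unadjusted p with a higher mean and 0 with a lower one. Among all genes 8.25% were higher. Their summed level was 8525, 8981, 8963, 10408 and 10145 CPM in HFS TRF replicates 1 to 5 and 7984 to 9453 CPM with a median of 8378 CPM in HFS ad lib mice. HFS TRF replicates 4 and 5 were above every HFS ad lib mouse, while replicates 1, 2 and 3 lay below HFS ad lib replicates 1 and 2 and above the other 4.

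None of these genes passed the adjusted threshold, and single differences were small. Rpl7 stood at 245, 233, 241, 299 and 268 CPM in HFS TRF mice and from 188 to 245 CPM (median 215) in HFS ad lib mice (log2 fold change 0.25, SE 0.07, adjusted p = 0.188 by edgeR's quasi-likelihood test). Rps25 differed by 0.21 (SE 0.07). Rps6, which encodes the very protein that the purification targets, also differed by 0.21 (SE 0.07) and stood at 114, 124, 116, 140 and 141 CPM against 97.0 to 130 CPM (median 108). Without HFS ad lib replicate 2 the count was 35 of 55 and the median 0.18. It was 5 of 55 without HFS TRF replicate 4 and 10 of 55 without HFS TRF replicate 5, with medians of 0.11 and 0.12, and 16 and 17 without HFS ad lib replicates 3 and 4.

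Nuclear genes of oxidative phosphorylation behaved alike. Of 47 measured, 19 (40.4%) were at unadjusted p with a higher mean and 0 with a lower one, and the median was 0.15. In 4 of the 47 every HFS TRF mouse was above every HFS ad lib mouse, against 0.405% of all genes. Uqcrb, a subunit of complex III, stood at 93.0, 89.5, 91.8, 126 and 105 CPM in HFS TRF mice and at 62.9 to 87.9 CPM (median 78.3) in HFS ad lib mice (0.38, SE 0.11, adjusted p = 0.170 by edgeR's quasi-likelihood test). Ndufa1, of complex I, differed by 0.30 (SE 0.10). The count was 25 without HFS ad lib replicate 2, 7 without HFS TRF replicate 4 and 12 without HFS TRF replicate 5. With the choroid plexus and microglia scores in the model it was 22 for these genes and 37 for the ribosomal proteins.

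Of the 13 protein-coding genes of the mitochondrial genome, 2 were at unadjusted p, mt-Co2 and mt-Co3, and both had at most 16 counts in any mouse. The abundant ones varied widely within each group. The 13 genes summed to 676, 962, 372, 833 and 1034 CPM in HFS TRF mice and to 309 to 709 CPM (median 557) in HFS ad lib mice. mt-Co1, mt-Nd1 and mt-Cytb, chosen after their values were seen, differed by 0.48 (SE 0.30), 0.54 (SE 0.38) and 0.63 (SE 0.34).

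Genes of glutamate and GABA signalling lay on the other side. Of 22 glutamate receptor genes, 5 (22.7%) were at unadjusted p with a lower mean and 0 with a higher one (median -0.17), and of 19 genes of GABA synthesis, transport and receptors 5 (26.3%) were lower and 0 higher (median -0.14). The share of all genes that were lower was 7.32%. Among genes with a mean of at least 10 CPM it was 9.77%, with 6.96% higher. Single mice moved these counts. For glutamate receptors the count was 8 without HFS ad lib replicate 2 and 3 without HFS TRF replicate 2, HFS TRF replicate 4 or HFS ad lib replicate 3. For GABA genes it was 7 without HFS ad lib replicate 2 and 3 without HFS TRF replicate 1.

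Gad1, the GABA-synthesising enzyme, led these. It stood at 336, 343, 298, 303 and 343 CPM in HFS TRF mice and at 340 to 472 CPM with a median of 411 CPM in HFS ad lib mice, where replicate 2 was the lowest and the only one to overlap (-0.35, SE 0.10, adjusted p = 0.162 by edgeR's quasi-likelihood test). Gabra3, a GABA receptor subunit, was at 22.3, 23.0, 19.4, 21.9 and 28.4 CPM against 28.1 to 34.3 CPM (median 29.6), with only HFS TRF replicate 5 inside that range (-0.41, SE 0.13). The kainate receptor gene Grik3 differed by -0.32 (SE 0.13) and the metabotropic receptor gene Grm7 by -0.23 (SE 0.10).

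Markers of neurons as a class had lower means too. All 12 were below 0, 5 of them at unadjusted p, with a median of -0.15. Without HFS ad lib replicate 2, 11 were below 0 and 4 at unadjusted p (median -0.13). Gad1, described above, is also in this list, so it and the GABA list are not separate evidence. Nefm, a neurofilament subunit, was at 250, 272, 266, 297 and 303 CPM in HFS TRF mice and at 329 to 349 CPM (median 339) in HFS ad lib mice, a tight group with no overlap (-0.28, SE 0.09). The summed neuron markers were 13966, 14519, 15160, 14870 and 15215 CPM in HFS TRF mice and 14269 to 18291 CPM in HFS ad lib mice. Subfield markers gave 0 of 7 for CA1, 0 of 10 for the dentate gyrus and 1 of 9 for CA2 and CA3 at unadjusted p, the last being Elavl4, an RNA-binding protein of neurons (-0.31, SE 0.10). Markers of neighbouring regions gave 3 higher and 1 lower of 20, led by Ppp1r1b, the striatal phosphatase inhibitor DARPP-32 (0.96, SE 0.34), and Zic4 (1.39, SE 0.53), both highest in HFS TRF replicates 1, 3 and 4.

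**Figure D3:**
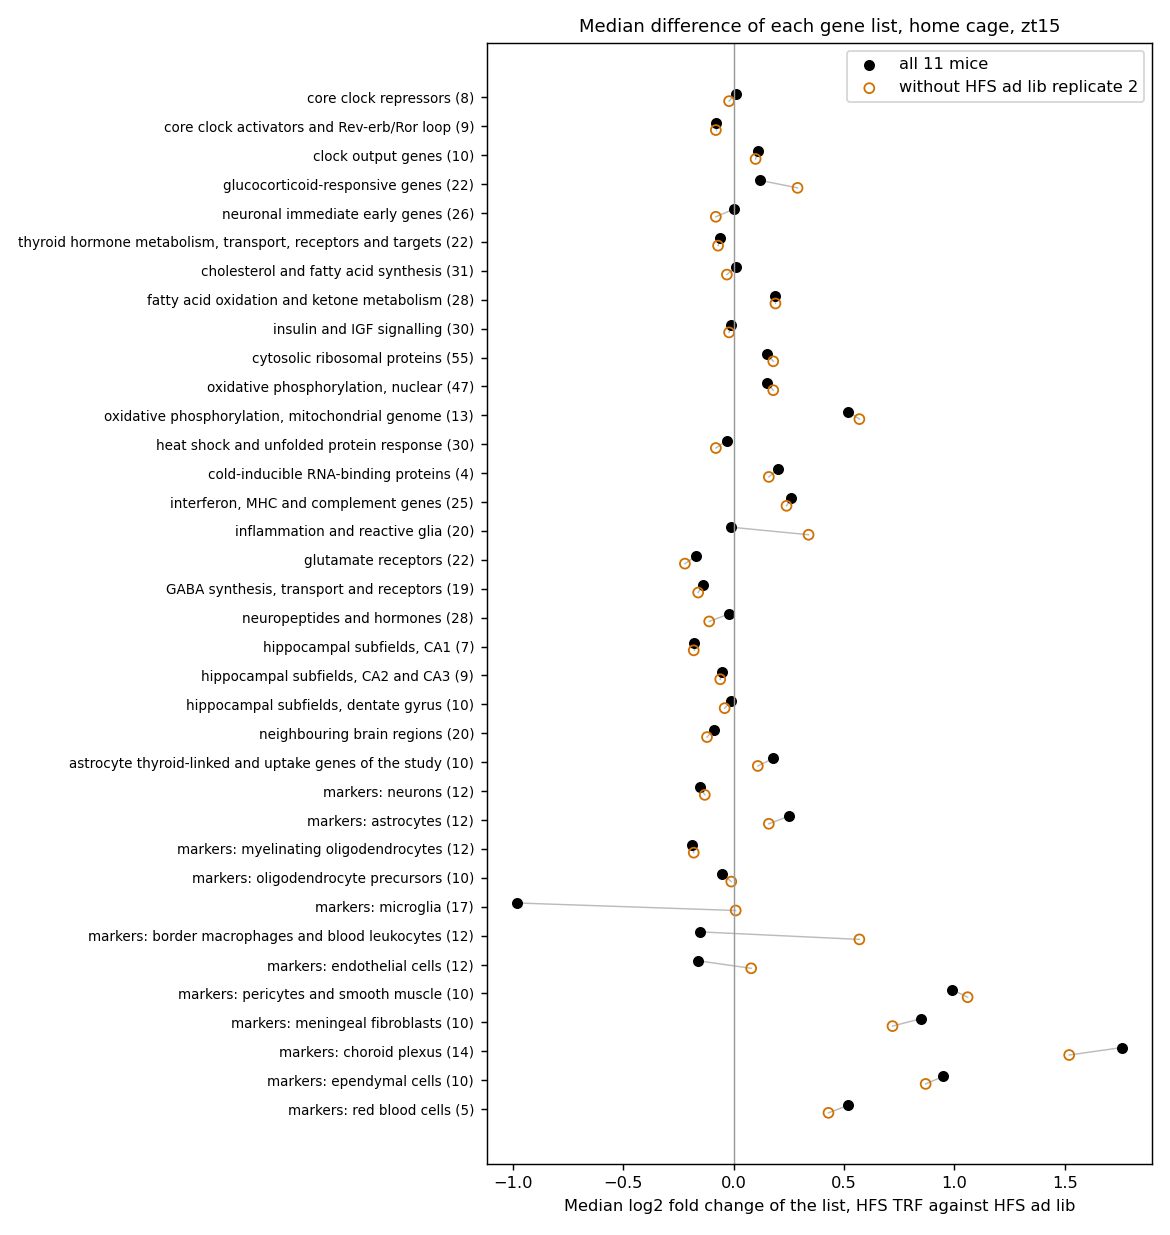
Median log2 fold change of HFS TRF against HFS ad lib mice for each of 36 gene lists, with the number of genes measured in brackets. Filled points use all 11 mice and open points leave out HFS ad lib replicate 2. Microglia markers move from -0.98 to 0.01, and choroid plexus markers have the highest median, 1.76.

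The groups of higher and lower genes also differed in length. Protein-coding genes with a mean of at least 1 CPM were split into 5 classes of like size by the exon bases of the annotation, class 1 being the shortest. In class 1, of at most 3867 bases, 14.7% were at unadjusted p with a higher mean and 3.84% with a lower one. In class 5, of at least 10450 bases, it was 4.45% and 14.9%. The median log2 fold change went from 0.066 to -0.065 across the classes. The log2 ratio of the summed level of class 1 to that of class 5 was -0.32, -0.31, -0.20, -0.12 and -0.23 in HFS TRF replicates 1 to 5 and -0.53 to -0.33 in HFS ad lib mice, so every HFS TRF mouse was above every HFS ad lib mouse. What sets this gradient was not tested.

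Ribosomal protein genes are short and synaptic receptor genes long. Within class 1, 17 of 36 ribosomal protein genes were higher at unadjusted p, against 14.3% of the other genes of that class, and 12 of 19 nuclear genes of oxidative phosphorylation, against 14.4%. In class 3 it was 4 of 7 and 2 of 7, against 7.13% and 7.21%. Glutamate receptor genes were lower in 3 of 11 within class 5, against 14.8% of the others there, and GABA genes in 2 of 11 within class 4, against 11.8%. The same gradient was present between TRF and ad lib mice in the other conditions, with medians of 0.041 and -0.041 in classes 1 and 5 at ORM+12 h and 0.054 and -0.056 at HC zt3.

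**Figure D4:**
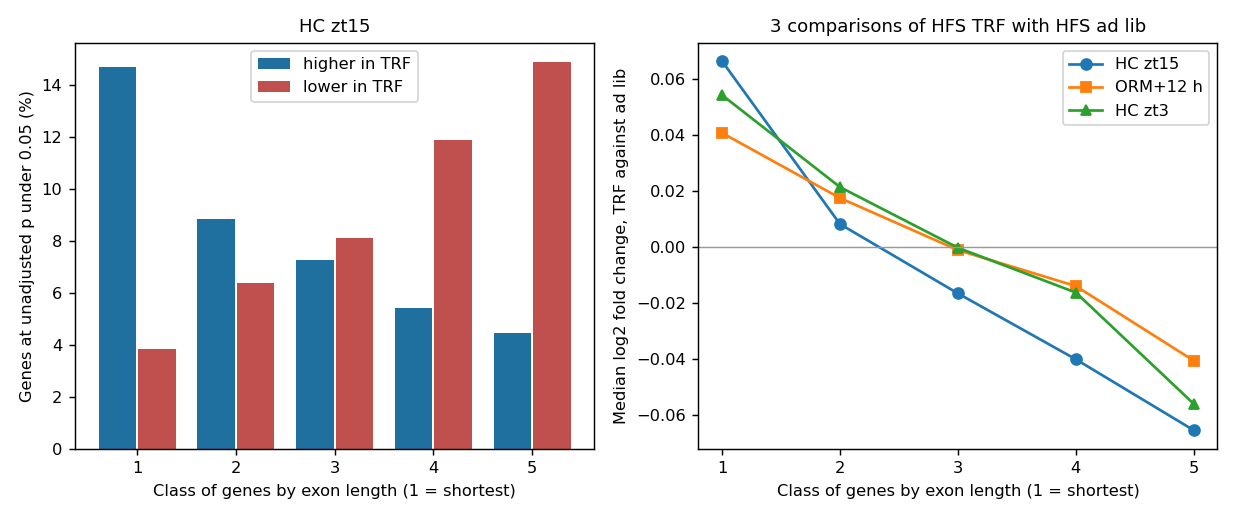
Left, the share of protein-coding genes at unadjusted p under 0.05 with a higher (blue) or lower (red) mean in HFS TRF mice at HC zt15, by class of exon length. Right, the median log2 fold change of HFS TRF against HFS ad lib in each class at HC zt15, ORM+12 h and HC zt3. The share higher goes from 14.7% to 4.45% and the share lower from 3.84% to 14.9%, and the medians go down with length in all 3 comparisons.

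The core clock was close to level between the groups. Of 8 core clock repressors none were at unadjusted p and the median was 0.01. Ciart, a repressor of CLOCK and BMAL1, differed by 0.30 (SE 0.15), Bhlhe40 by -0.15 (SE 0.08) and Per3 by 0.14 (SE 0.12). Of 9 activators and members of the Rev-erb and Ror loop, 1 was at unadjusted p with a lower mean. This was Npas2, a CLOCK homologue of the forebrain, at 19.4, 19.3, 18.7, 16.7 and 15.7 CPM in HFS TRF mice and 18.9 to 23.0 CPM (median 21.7) in HFS ad lib mice (-0.26, SE 0.10, adjusted p = 0.258 by edgeR's quasi-likelihood test). Nr1d2, which encodes REV-ERB beta, differed by 0.13 (SE 0.10), and Bmal1, chosen after its values were seen, by -0.13 (SE 0.11).

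Of 10 clock output genes, 4 were at unadjusted p with a higher and 2 with a lower mean, and when 1 mouse was left out 2 to 5 and 1 to 2 were, with 2 higher without HFS TRF replicate 1. Dbp, the output factor driven directly by the clock and chosen after its values were seen, was at 187, 164, 186, 150 and 151 CPM in HFS TRF mice and at 98.1 to 171 CPM (median 123) in HFS ad lib mice. All HFS TRF mice were above 5 of 6 HFS ad lib mice, replicate 1 being the exception (0.39, SE 0.17). Ptgds, the prostaglandin D synthase that promotes sleep and is abundant in meninges, was at 313, 340, 464, 245 and 175 CPM against 72.5 to 177 CPM (median 150), a difference of 1.15 (SE 0.41). Tspan4, a tetraspanin, differed by 0.64 (SE 0.22). HFS TRF replicates 2 and 5, both low in meningeal and choroid plexus markers, were the second highest and the lowest of their group in Ptgds.

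Feeding-related metabolism gave scattered values. Of 31 genes of cholesterol and fatty acid synthesis, 3 were higher and 6 lower at unadjusted p (median 0.01). When 1 mouse was left out the counts ran from 0 to 4 higher and 0 to 6 lower, with 0 higher without HFS TRF replicate 3 and 0 lower without HFS ad lib replicate 5. Acly, which makes cytosolic acetyl-CoA, differed by -0.18 (SE 0.08). Of 28 genes of fatty acid oxidation and ketone metabolism, 4 were higher and 0 lower (median 0.19). The 4 became 0 without HFS TRF replicate 1 or 3, 1 without HFS ad lib replicate 4 or 6, 7 without HFS TRF replicate 5 and 8 without HFS ad lib replicate 3. Acadl, a long-chain acyl-CoA dehydrogenase, differed by 0.53 (SE 0.23) and the mitochondrial carrier gene Ucp2 by 1.24 (SE 0.55). Ucp2 stood at 242, 81.2, 251, 229 and 66.7 CPM in HFS TRF mice and at 37.8 to 130 CPM (median 66.3) in HFS ad lib mice, high in the same 3 HFS TRF mice as the choroid plexus markers. With the choroid plexus and microglia scores in the model, 1 of 28 was at unadjusted p and the median was 0.03. Of 30 genes of insulin signalling, 1 was higher (Rps6, above) and 1 lower, the kinase subunit gene Pik3ca (-0.21, SE 0.09).

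Lists of stress and of neuronal activity held few genes at unadjusted p. Of 22 glucocorticoid-responsive genes, 2 were higher and 3 lower, and 18 were above 0 (median 0.12). Without HFS ad lib replicate 2, which carries Lcn2 of this list, 1 was higher and 1 lower, and the median was 0.29. The higher count was 0 without HFS TRF replicate 3 and 4 without HFS TRF replicate 4 or HFS ad lib replicate 1. Sgk1, a kinase induced by glucocorticoids, differed by 0.39 (SE 0.15). Of 26 neuronal immediate early genes 1 was higher, Gadd45g (0.42, SE 0.16), followed by Btg2 at 0.36 (SE 0.19). Of 30 heat shock and unfolded protein genes 1 was higher, Hspb1 (1.30, SE 0.54), and 3 lower, led by the chaperone gene Hsph1 at -0.30 (SE 0.12), and the lower count ran from 1 to 7 when 1 mouse was left out, with 7 without HFS ad lib replicate 3. Of 4 cold-inducible RNA-binding proteins 1 was higher. That was Rbm3, at 81.9, 79.1, 73.2, 71 and 80.2 CPM in HFS TRF mice and at 17.5 to 77.6 CPM (median 58.8) in HFS ad lib mice, the lowest being replicate 2 (0.47, SE 0.18, or 0.29 without it), and Cirbp differed by 0.29 (SE 0.15). Of 25 interferon, MHC and complement genes 21 were above 0 (median 0.26), 1 was higher and 3 lower, the latter being the complement genes above, and without HFS ad lib replicate 2 it was 2 higher and 0 lower (median 0.24). Of 20 genes of inflammation and reactive glia 1 was higher, Vim (0.59, SE 0.22), and 2 lower (median -0.01), with 10 of 20 below 0. Without HFS ad lib replicate 2 it was 2 higher and 1 lower, with 4 of 20 below 0 and a median of 0.34. Of 28 neuropeptides and hormones 0 were at unadjusted p in either direction.

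Thyroid hormone acts in the hippocampus after astrocytes turn the prohormone into its active form, and its receptors recruit coactivators and corepressors. Of 22 genes of this system, 1 was higher and 3 lower at unadjusted p (median -0.06), or 5 lower without HFS ad lib replicate 2. Dio2, the activating deiodinase of astrocytes, was at 47.5, 37.4, 43.8, 37.6 and 38.6 CPM in HFS TRF mice and at 23.1 to 44.2 CPM (median 33.6) in HFS ad lib mice (0.28, SE 0.25). Dio3, the inactivating deiodinase, was at 0.344, 0.794, 0.566, 0.825 and 0.963 CPM against 0.489 to 1.88 CPM (median 1.29), a difference of -0.81 (SE 0.42). Without HFS ad lib replicate 2, the lowest of its group, Dio3 no longer overlapped (-0.98, adjusted p = 0.311 by edgeR's quasi-likelihood test). NC mice held 2.18 ± 1.26 CPM (SD, n = 6). The coactivator genes Ncoa1 and Ncoa2 differed by -0.17 (SE 0.07) and -0.20 (SE 0.08).

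Astrocyte transcripts were higher on average in HFS TRF mice with wide overlap. All 12 astrocyte markers and all 10 astrocytic genes that the study singles out on mice of this series were above 0, with medians of 0.25 and 0.18 and none at unadjusted p. Without HFS ad lib replicate 2 the medians were 0.16 and 0.11, and 1 of the 10 was below 0. In the other conditions they were 0.22 and 0.28 at ORM+12 h and -0.26 and -0.27 at HC zt3. The second list was chosen by the study on these samples and is not independent evidence of a direction. Slc1a2, the main glutamate transporter of astrocytes, was at 1545, 1307, 1647, 1069 and 1181 CPM in HFS TRF mice and at 915 to 1646 CPM (median 1231) in HFS ad lib mice (0.13, SE 0.22). Slc1a3 differed by 0.23 (SE 0.32), the gap junction gene Gja1 by 0.27 (SE 0.33), the cystine transporter gene Slc7a11 by 0.45 (SE 0.27) and the water channel gene Aqp4 by 0.37 (SE 0.30). No oligodendrocyte marker was at unadjusted p, with medians of -0.19 for 12 myelinating and -0.05 for 10 precursor markers. The myelin genes Cnp and Mbp differed by -0.25 (SE 0.13) and -0.17 (SE 0.11). Of 12 markers of border macrophages and blood leukocytes, 1 was higher and 1 lower. Of 5 red blood cell genes, 2 were higher, or 0 without HFS ad lib replicate 1 or 2 or HFS TRF replicate 1 and 4 without HFS ad lib replicate 4, with Hba-a1, an alpha globin, at 0.57 (SE 0.24) and no overlap between groups.

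HFS TRF and HFS ad lib mice were also compared in other mice, by day at HC zt3 and at night 12 h after training (ORM+12 h). Whether the TRF difference at HC zt15 differed from these was tested as an interaction. For HC zt3 no gene passed (0% of 30141, smallest adjusted p 0.461 by edgeR's quasi-likelihood test), with 2535 (8.41%) at unadjusted p, and for ORM+12 h no gene passed (0%, smallest adjusted p 0.141), with 4247 (14.1%) at unadjusted p. HC zt3 mice belong to a separate experiment, so time and experiment cannot be told apart there.

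Of the 4694 genes at unadjusted p at HC zt15, 44.5% had the same sign of difference at ORM+12 h and 56.8% at HC zt3, against 46.8% and 50.6% of all genes tested. Among the 1610 of them with a mean of at least 10 CPM it was 58.9% and 69.5%, against 53.1% and 58.0% of all genes at that level. Of the 24 genes of smallest p, 14 had the same sign at ORM+12 h and 16 at HC zt3, at smaller sizes in most. Ctr9 differed by -0.16 and 0.03, Dzank1 by 0.00 and -0.01, Plcb2 by 0.03 and -0.03, Washc4 by -0.21 and -0.19, Zbed3 by 0.18 and -0.09 and Slirp by 0.09 and 0.10.

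Gene groups differed in how far they were shared between conditions. Ribosomal protein genes had medians of 0.15 at HC zt15, 0.13 at ORM+12 h and 0.13 at HC zt3. Glutamate receptor genes had -0.17, 0.13 and -0.03, and GABA genes -0.14, 0.16 and -0.07. Choroid plexus markers had 1.76, -1.60 and 0.46. Their summed levels overlapped widely in each of the night conditions, with 194 to 17224 CPM in HFS ad lib and 210 to 10902 CPM in HFS TRF mice at ORM+12 h. Ependymal markers followed with 0.95, -0.99 and 0.31, meningeal markers with 0.85, -0.43 and 0.33, and pericyte and smooth muscle markers with 0.99, -0.07 and 0.02. Interaction with ORM+12 h was at unadjusted p for 12 of 14 choroid plexus markers, 10 of 19 GABA genes and 8 of 12 markers of myelinating oligodendrocytes, against 14.1% of all genes. For choroid plexus it was 6 of 14 without HFS TRF replicate 3 at HC zt15, and for GABA genes 6 of 19 without HFS ad lib replicate 6. Of 17 microglia markers 15 were at unadjusted p, which rested on HFS ad lib replicate 2, since 1 of 17 was without it. Interaction with HC zt3 was at unadjusted p for 5 of 5 red blood cell genes and 10 of 17 microglia markers. It was also for 5 of 13 mitochondrial genome genes and 3 of 8 core clock repressors, against 8.41% of all genes. Medians at HC zt15 and HC zt3 were 0.52 and -0.59 for red blood cell genes and 0.52 and -0.42 for mitochondrial genome genes.

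Genes of smallest interaction p included some that were high in the mice named above. Samd3 had 130, 6, 106, 154 and 30 counts in HFS TRF replicates 1 to 5 and at most 60 in HFS ad lib mice at HC zt15. Against ORM+12 h, Tuba1c, an alpha tubulin, had an interaction term of 1.48, and both genes were high in HFS TRF replicates 1, 3 and 4. Clec5a, a receptor of myeloid cells, had -2.79 and was highest in HFS ad lib replicate 2. Gjd2, the neuronal gap junction protein connexin 36, had -1.09, at 3.00, 2.38, 2.47, 3.34 and 3.42 CPM in HFS TRF mice and 3.03 to 5.92 CPM (median 4.43) in HFS ad lib mice. Against HC zt3, Smurf2, a ubiquitin ligase of the TGF beta pathway, was at 31.7, 30.1, 28.8, 28.6 and 28.2 CPM in HFS TRF mice and 24.2 to 27.3 CPM (median 25.1) in HFS ad lib mice, with 0.21 at night and -0.21 by day. Myc, the growth regulator, differed by -0.48 at night and 0.27 by day. The adjusted p by edgeR's quasi-likelihood test was 0.141 for the terms against ORM+12 h and 0.461 for those against HC zt3.

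**Figure D5:**
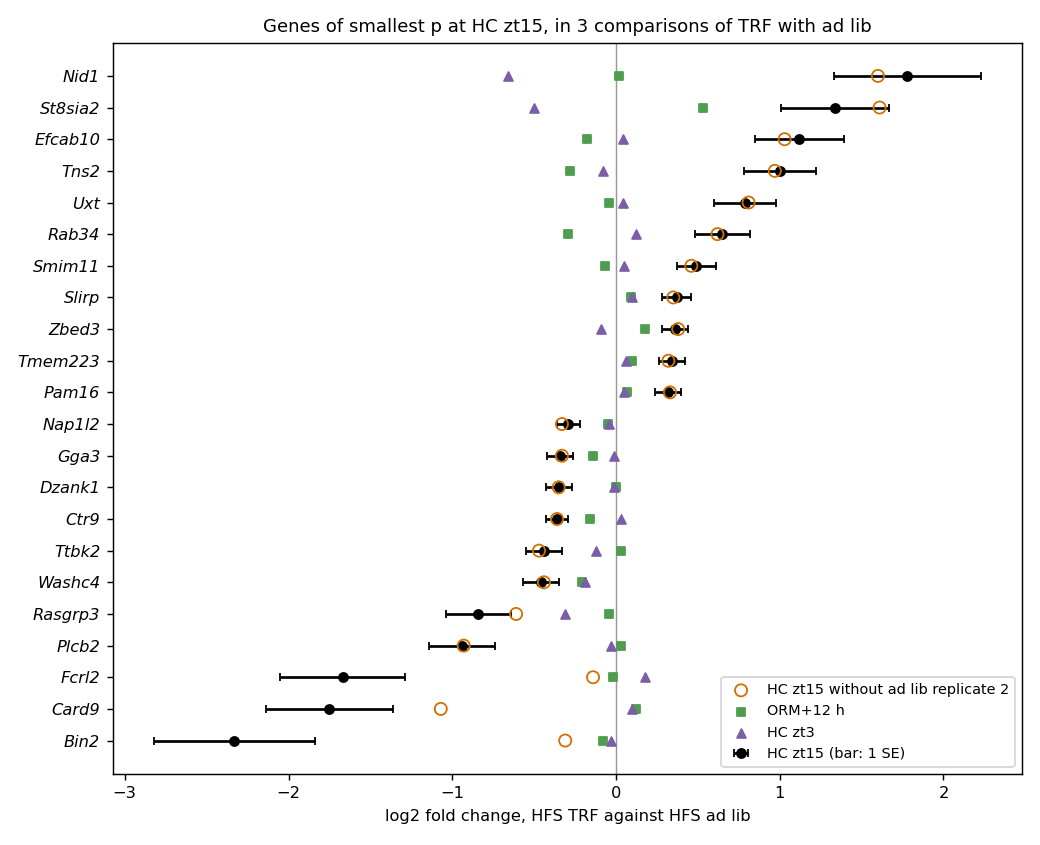
Log2 fold change of HFS TRF against HFS ad lib for the genes of smallest p at HC zt15 whose means were at least 0.1 CPM in both groups (black, bar 1 SE), the same without HFS ad lib replicate 2 (open), and the values in other mice at ORM+12 h (squares) and HC zt3 (triangles). Bin2 and Fcrl2 move to -0.31 and -0.14 without that mouse, and most values in the other conditions lie nearer to 0.

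The NC mice give each group a reference, and the following 2 sets of values share their controls with the comparison above or with each other. HFS ad lib minus NC was -0.02 for Ctr9, 0.00 for Dzank1, 0.58 for Plcb2, -0.15 for Tmem223 and -0.14 for Slirp on the log2 scale. HFS TRF minus NC was -0.37, -0.35, -0.36, 0.20 and 0.23 for the same genes. None of these 10 values passed the adjusted threshold by edgeR's quasi-likelihood test.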

How the data were processed

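Per the labels and the study's methods, the authors trimmed reads of stranded mRNA libraries from pS6-TRAP with Trim Galore 0.6.7 and cutadapt 3.4, aligned them to GRCm39 with HISAT2 2.2.0 and counted them per gene with featureCounts of Subread 2.0.3. The annotation release is not given in the sources used here. The deposited counts are raw whole-number counts per gene. Most low counts were even, the cause of which is not stated, so the number of fragments may be smaller than the count.

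Genes with at least 10 counts in total over 71 mice (30141 of 57010) were fitted in R 4.3.3 with edgeR 4.0.16, TMM normalisation, 1 coefficient for each of 12 groups and quasi-likelihood tests, with Benjamini-Hochberg adjustment and a threshold of 0.05. SE is the log2 fold change divided by the root of F. CPM uses TMM-scaled library sizes. DESeq2 1.42.0, limma 3.58.1 with sample weights, other filters and scalings, a replicate block and omission of each mouse were alternatives, and a fit with choroid plexus and microglia scores was added after the data were seen. The script was tested on simulated data.

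The comparison and gene lists were chosen with earlier results of these data known. Genes were named by rule: the 12 protein-coding genes of smallest p in each direction, 5 in each direction without HFS ad lib replicate 2, the 2 of smallest p in each list, 3 in each direction of each interaction, the 8 most abundant microglia markers and a set of 10 that the study discusses. Others are said to be chosen after their values were seen. Some genes under the rule with few counts are not described, and a few others are not reported here. No label ties mice of the groups to each other. Mice with the same replicate number did not deviate together throughout, with correlations of deviations from -0.395 to 0.634, the highest for replicate 3. Whether the number marks a shared batch was not tested.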

Additional observations from a re-analysis of the deposited data

Results flagged for a closer look

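Within each group of 5 or 6 mice, the highest or lowest mouse was compared with its nearest neighbour, as the gap divided by the range of the group. Of 224 groups of values examined, 27 passed Dixon's critical value. Chance would give about 1 in 20, or 11.2, if the values were independent and chosen without regard to single mice. They were not, since microglia markers were named for HFS ad lib replicate 2 and markers of a cell type move together. No conclusion is drawn from the excess. Of the 27, 14 were HFS ad lib replicate 2.

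HFS ad lib replicate 2 was far above its group in the summed microglia markers (ratio 0.995) and in Bin2 (0.963), Card9 (0.818), Fcrl2 (0.947), Lcn2 (0.996), Igfals (1), C1qa (0.97), C1qb (0.939), C1qc (0.983), Csf1r (0.958), Ctss (0.933), Laptm5 (0.929) and Cx3cr1 (0.973). The same mouse was low in Vtn (0.634).

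The mouse HFS ad lib replicate 3 was far above its group in the summed markers of choroid plexus (0.865), meningeal fibroblasts (0.79) and ependymal cells (0.633), and in Col1a2 (0.662), Kl (0.772), Ttr (0.881), Zic4 (0.889) and Samd3 (0.859). Replicate 6 of that group was high in Tmem223 (0.648) and in the summed glutamate receptor genes (0.647).

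Among HFS TRF mice, replicate 2 was high in Card9 (0.757) and Cnp (0.713), and replicate 3 was low in Pik3ca (0.782).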

How the results depend on the processing

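The count of 0 genes at adjusted p under 0.05 in the TRF comparison became 56 with the DESeq2 Wald test and 5 with limma voom and sample weights, and ranged from 0 to 7 when 1 mouse was left out. It was 7 without HFS ad lib replicate 6, 6 without replicate 3, 2 without replicate 1, and 1 without HFS ad lib replicate 2 or 4 or HFS TRF replicate 3. For the interaction with ORM+12 h the count was 17 with the DESeq2 Wald test, 1 with choroid plexus and microglia scores as covariates, and 0 to 16 when 1 mouse was left out, with 16 without HFS ad lib replicate 3. The interaction with HC zt3 stayed at 0 in every alternative run. The cause of these differences was not tested.

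When 1 mouse was left out the log2 fold change ranged from -7.11 to 0.39 for Lcn2, -1.17 to 0.02 for C1qa, -1.29 to 0.00 for C1qb, -1.12 to 0.04 for C1qc and -1.09 to 0.03 for Csf1r, the upper value being that without HFS ad lib replicate 2. With the scores as covariates it turned to 0.01 for C1qa, 0.05 for C1qc, 0.03 for Csf1r and -0.1 for Ttr. These genes are members of the marker lists that make up the scores, so values near 0 follow from the fit itself. Of 99 named genes, 93 kept their direction in all 21 settings. Many were named for a small p in these same counts and the settings refit the same mice, so this says little about other mice.

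Same-numbered mice had correlations of deviations between -0.395 and 0.634, the highest for replicate 3, so the replicate number did not pair the mice throughout. With the number as a replicate block the count was 0 (smallest adjusted p 0.0538 by edgeR's quasi-likelihood test). In a fit of the compared groups alone, 14 of 55 ribosomal protein genes, 11 of 47 nuclear oxidative phosphorylation genes and 7 of 14 choroid plexus markers were higher at unadjusted p. With sample weights 1 of 17 microglia markers was lower. Genes under about 1 CPM rest on few fragments, and 2134 of the genes tested had no count in these mice.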
